A study of Mus musculus with 10 samples.

Results

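The 36 genes described here are markers and working parts of macrophages and of antigen presentation, taken from the 24160 gene rows measured in the posterior wall of the mouse left ventricle. They were chosen by symbol: RefSeq accessions of the table were matched to 36 named genes, each matched 1 row, and all 36 passed the minimum mean of 1 normalized count. By role they comprised 5 genes of macrophage identity and growth factor signalling, 6 of resident macrophages, 4 of recruited, monocyte-derived cells, 3 chemoattractant and complement receptors, 5 of MHC class II presentation, 6 Fc receptors and their signalling adaptors, 4 lysosomal and effector genes and 3 membrane genes shared by most leukocytes.

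Polyadenylated RNA was sequenced from 6 MC4R-/- libraries and 4 WT libraries. MC4R-/- mice carry no functional gene for the melanocortin 4 receptor, which couples to G proteins and restrains feeding through neurons of the hypothalamus. Mice of both genotypes were C57BL6/J animals aged 30 weeks, bred from heterozygous parents and kept at 24 °C, and no treatment is named for either group. The labels name neither the knockout allele nor the sex of the mice, and they do not state that each library came from a separate animal, so each p-value reflects only how far these samples spread, and that spread may be technical. Levels are normalized counts, that is, reads per gene divided by a size factor of each library.

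Libraries held 4145033 to 6425785 reads assigned to genes. Ventricular cardiomyocyte markers (8 genes) summed to 411600 to 466600 normalized counts in MC4R-/- libraries and 430900 to 480100 in WT libraries, which fits the labelled tissue. Mc4r, the gene of that receptor, had 4 reads over the 6 MC4R-/- libraries and 2 over the 4 WT libraries, too few to check the genotype. WT replicate 2 stood apart: the 9 T cell markers summed to 12.2 to 28.9 normalized counts in MC4R-/- libraries, to 1135 in WT replicate 2 and to 22.0 to 49.1 in the other WT libraries. Counts over the 36 members are therefore given with and without WT replicate 2. Leaving it out moved the log2 fold change of any single member other than Ptprc, Cd53 and Laptm5 by at most 0.23, and the values of single genes below use all libraries unless stated otherwise.

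The heart holds macrophages of several origins. Resident populations settle before birth and renew themselves in place, and in mice they carry receptors such as TIMD4, FOLR2 and LYVE1, while monocytes that enter from the blood bear the chemokine receptor CCR2. Macrophages, dendritic cells and B cells display peptides to CD4+ T cells on MHC class II, whose alpha and beta chains assemble on the invariant chain CD74, which cathepsin S and other proteases later trim away. Transcription of these genes depends on the coactivator CIITA, which is held by factors bound at the X, X2 and Y boxes of their promoters, and myeloid genes such as Itgam depend on the ETS factor PU.1, encoded by Spi1.

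Promoters are shown for the class II genes H2-Aa and H2-Eb1, which had lower means in MC4R-/- libraries and the same highest library, and for Itgam, the only member whose MC4R-/- libraries all lay above all WT libraries. Each run is the 250 bases before the annotated start in the RefSeq promoter table of GRCm38.p6, written 5′ to 3′ on the gene's strand, and capitals mark the motifs searched. The H2-Aa window lies at chr17:34287824-34288073 on the minus strand, the H2-Eb1 window at chr17:34305617-34305866 on the plus strand and the Itgam window at chr7:128062390-128062639 on the plus strand.
H2-Aa: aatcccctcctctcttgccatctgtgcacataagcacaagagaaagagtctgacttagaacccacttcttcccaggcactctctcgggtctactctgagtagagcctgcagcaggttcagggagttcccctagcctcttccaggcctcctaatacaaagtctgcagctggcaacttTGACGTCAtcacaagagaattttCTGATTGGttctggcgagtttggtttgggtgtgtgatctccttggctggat
H2-Eb1: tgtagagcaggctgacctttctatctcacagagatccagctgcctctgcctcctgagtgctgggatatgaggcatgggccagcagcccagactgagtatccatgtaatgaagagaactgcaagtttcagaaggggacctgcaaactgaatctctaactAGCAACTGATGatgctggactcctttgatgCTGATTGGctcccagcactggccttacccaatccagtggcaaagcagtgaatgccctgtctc
Itgam: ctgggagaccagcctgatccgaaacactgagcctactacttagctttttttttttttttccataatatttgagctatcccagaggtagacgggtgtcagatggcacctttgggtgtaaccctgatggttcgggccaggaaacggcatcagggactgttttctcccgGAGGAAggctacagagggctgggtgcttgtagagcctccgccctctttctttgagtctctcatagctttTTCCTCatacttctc

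The motifs were searched on both strands and did not overlap in these windows. A Y box written as CTGATTGG, the binding sequence of NF-Y, stood 51 to 44 bases before the start of H2-Aa and 62 to 55 bases before that of H2-Eb1, and it occurred in 3.83% of 32851 promoter windows of the same length. An X box, the sequence bound by RFX, was found in H2-Eb1 as AGCAACTGATG at 92 to 82 bases before the start, where any base was allowed in place of its first T, and in 0.0578% of all windows. The palindrome TGACGTCA, recognised by CREB and placed at the X2 position of class II promoters, was found in H2-Aa at 74 to 67 bases and in 1.55% of all windows. The core GAGGAA bound by PU.1 and other ETS factors occurred in the Itgam window at 84 to 79 bases and, on the opposite strand, at 15 to 10 bases. That short core was present in 23.3% of all windows. Counted by gene, it was present in 25.9% of all genes in the promoter table and in 12 of the 28 members found there (42.9%). A match therefore describes the letters only.

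Of the 36 genes, 0 passed the test between MC4R-/- and WT ventricle (limma on log2(normalized count + 1), Benjamini-Hochberg adjustment over 14611 genes, threshold 0.05), where 0.459% of all tested genes passed it. The count was also 0 without WT replicate 2, against 0.808% of all genes, and 0 by edgeR and by DESeq2 on the recovered reads. DESeq2 gave no adjusted p for some members, among them Timd4, Ms4a7, Cx3cr1, Ptprc and Cd53, so these could not pass by it. At an unadjusted p under 0.05, 8 members stood out by limma, all of them higher in MC4R-/- libraries: Itgam, F13a1, Folr2, Mrc1, Fcer1g, Timd4, Ms4a7 and Cx3cr1. Among all genes, 5.19% reached that level by limma in the higher direction and 4.41% in the lower. The count at the same level was 8 by edgeR and 5 by DESeq2. The 8 by edgeR were not the same genes. They held Ptprc, which was lower in MC4R-/- libraries (log2 fold change -1.52, edgeR, unadjusted p = 0.0059), and not Timd4 (edgeR, unadjusted p = 0.061). The mean log2 level was higher in MC4R-/- libraries for 27 of the 36 members (75.0%), against 48.4% of all tested genes, and the median log2 fold change of the members was 0.14, against -0.01 over all genes. Without WT replicate 2, 26 of 36 (72.2%) were higher, against 49.9% of all genes, with a median of 0.15. By limma 8 members, all higher, were then at an unadjusted p under 0.05, against 5.34% of all genes higher and 4.52% lower. The set had changed, with Cd53 and Laptm5 in place of Ms4a7 and Cx3cr1. These counts and medians are descriptions of a list chosen with earlier results known, and they carry no test.

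**Figure D1:**
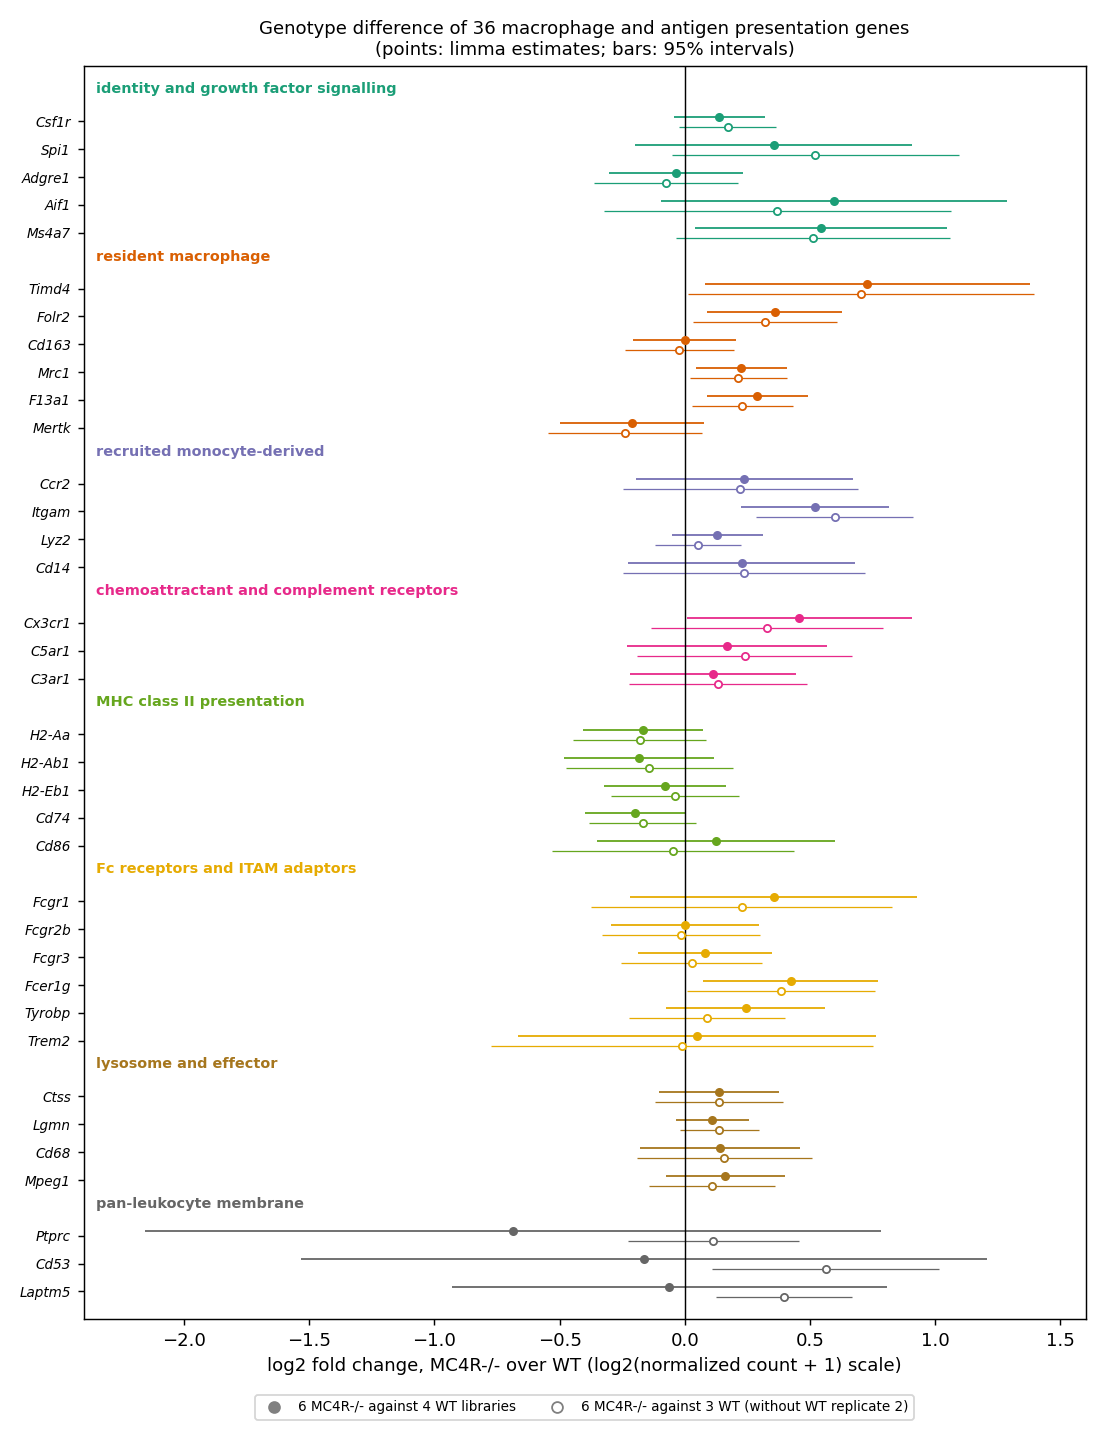
Log2 fold change of each of the 36 genes, MC4R-/- over WT, on the log2(normalized count + 1) scale, grouped by role; points are limma estimates and bars 95% intervals, filled for 6 against 4 libraries and open without WT replicate 2. Most filled points lie between -0.2 and 0.6, the 3 class II chains and Cd74 lie left of 0, and Ptprc, Cd53 and Laptm5 cross from left to right when WT replicate 2 is left out.

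For the genes that define macrophages as a class, 4 of 5 had a higher mean log2 level in MC4R-/- libraries. The median log2 fold change was 0.36, and without WT replicate 2 the count was the same with a median of 0.37. Csf1r, the receptor for the macrophage growth factors CSF1 and IL-34, had 296 to 390.3 normalized counts with a median of 348 in MC4R-/- libraries, against 320.4, 332, 273 and 316 in WT replicates 1 to 4. The groups overlapped, and the log2 fold change of 0.14 had a 95% interval from -0.04 to 0.32 (limma, adjusted p = 0.675). Adgre1, which encodes the F4/80 antigen, averaged 90.1 ± 14.9 normalized counts (SD, n = 6) in MC4R-/- libraries and 91.4 ± 6.38 (SD, n = 4) in WT libraries, and its interval ran from -0.30 to 0.23. Ms4a7, a membrane-spanning protein of macrophages, had 12.7 to 24.2 normalized counts with a median of 20.1 in MC4R-/- libraries, against 12.5, 11.7, 13.8 and 12.3 in WT libraries. Of the MC4R-/- libraries 5 of 6 lay above every WT library, with a log2 fold change of 0.54 ± 0.25 (SE; limma, adjusted p = 0.467). Spi1, the gene of PU.1, and Aif1, an actin-binding protein also called IBA1, were low, with means of 23.3 ± 5.67 and 15.8 ± 6.36 normalized counts (SD, n = 6) in MC4R-/- libraries, against 19.0 ± 7.42 and 9.82 ± 3.80 (SD, n = 4) in WT libraries. The libraries of both groups overlapped for each of them. In bulk tissue, fewer cells of a type and less RNA per cell cannot be told apart.

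Among the resident macrophage genes, 5 of 6 had a higher mean log2 level in MC4R-/- libraries, 4 of them at an unadjusted p under 0.05, and the median log2 fold change was 0.26. Without WT replicate 2, 4 of 6 were higher, and the same 4 genes, Timd4, Folr2, Mrc1 and F13a1, reached an unadjusted p under 0.05. F13a1, the A chain of coagulation factor XIII, was the most abundant of them per length at 114 normalized counts per kb. Its level was 417 to 560.2 normalized counts with a median of 474 in MC4R-/- libraries, against 350.2, 349, 449 and 446 in WT replicates 1 to 4. WT replicates 3 and 4 reached into the MC4R-/- range, and 3 of 6 MC4R-/- libraries lay above all WT libraries. The log2 fold change was 0.29 ± 0.10 (SE; limma, adjusted p = 0.255).

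Folr2, the folate receptor beta, had 79.3 to 119 normalized counts with a median of 93.1 in MC4R-/- libraries, against 80.8, 67.7, 66.5 and 79.2 in WT replicates 1 to 4. Only MC4R-/- replicate 4 lay within the WT range, and the log2 fold change was 0.36 ± 0.13 (SE; limma, adjusted p = 0.310). Mrc1, the mannose receptor CD206, had 254 to 326 normalized counts with a median of 276 in MC4R-/- libraries, against 226, 236, 234 and 271 in WT libraries. Its log2 fold change of 0.23 ± 0.09 (SE) did not pass the test either (limma, adjusted p = 0.363). Timd4, a phosphatidylserine receptor of self-renewing resident macrophages, had 10.8 to 19.6 normalized counts with a median of 16.4 in MC4R-/- libraries, against 3.85, 8.12, 11.1 and 15.0 in WT libraries. At these low counts the interval of its log2 fold change was wide, from 0.08 to 1.38 (limma, adjusted p = 0.437).

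The other resident genes went no further than the spread between libraries. Cd163, the scavenger receptor for haemoglobin bound to haptoglobin, averaged 226 ± 23.4 normalized counts (SD, n = 6) in MC4R-/- libraries and 226 ± 30.3 (SD, n = 4) in WT libraries, with an interval of the log2 fold change from -0.21 to 0.21. With all libraries, Mertk, a receptor tyrosine kinase for the clearance of dying cells, was the only resident gene with a lower mean log2 level in MC4R-/- libraries. Without WT replicate 2, Cd163 was lower too (log2 fold change -0.02). Mertk averaged 75.4 ± 13.2 normalized counts (SD, n = 6) in MC4R-/- libraries, against 86.6 ± 8.48 (SD, n = 4) in WT libraries. MC4R-/- replicates 1 to 4 lay below every WT library for Mertk, while replicates 5 and 6 lay inside the WT range.

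**Figure D2:**
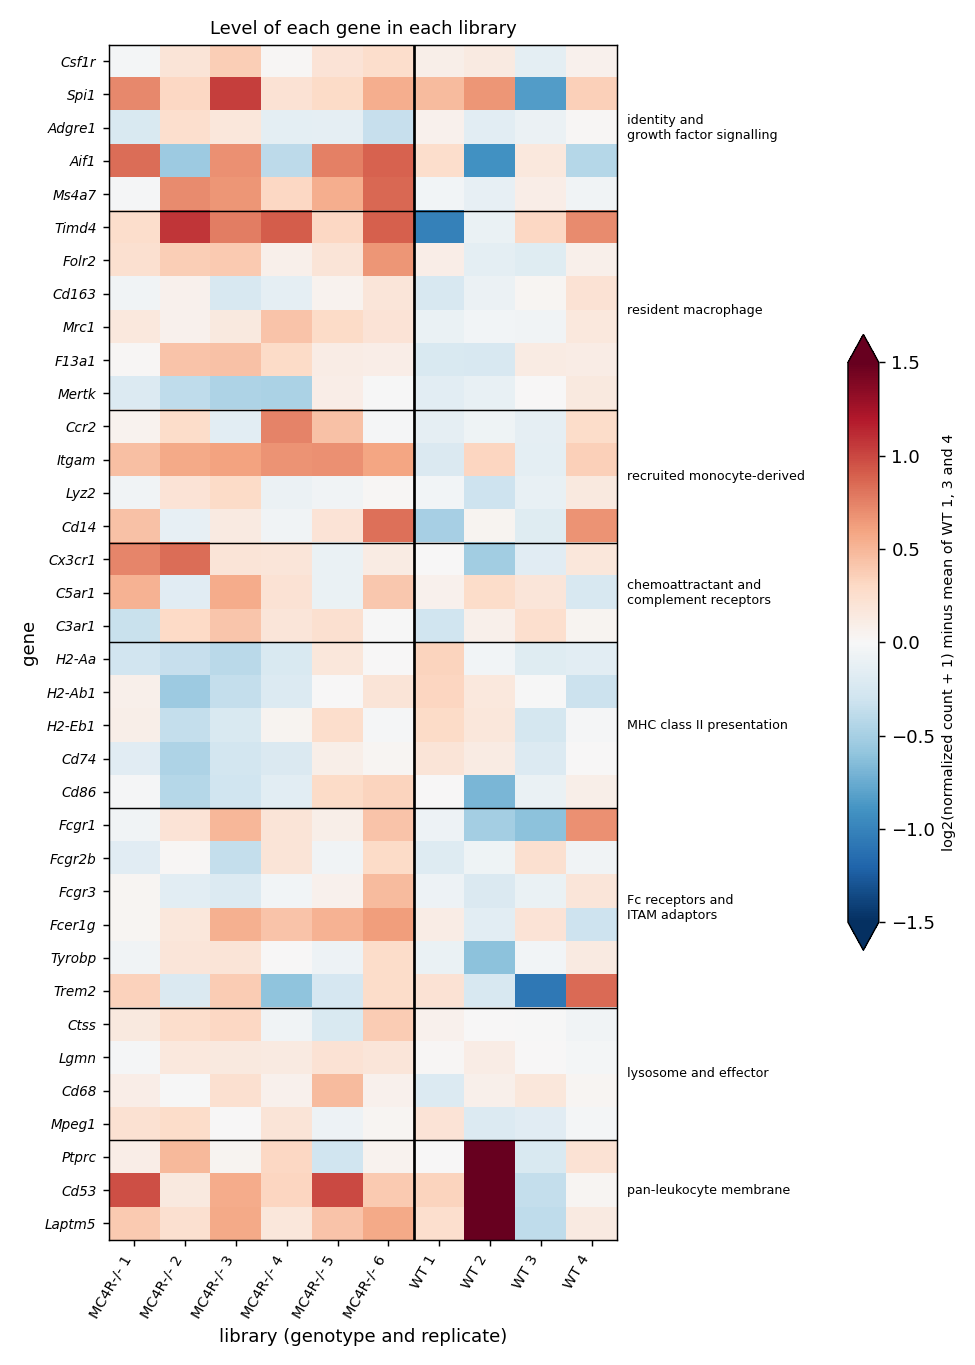
Level of each of the 36 genes (rows, grouped by role) in each of the 10 libraries (columns), as log2(normalized count + 1) minus the mean of WT replicates 1, 3 and 4; red is higher and blue lower. Ptprc, Cd53 and Laptm5 are high in WT replicate 2 alone, Itgam is red in all 6 MC4R-/- libraries, and MHC class II genes are blue in MC4R-/- replicates 2 and 3.

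Of the genes grouped as recruited, 4 of 4 had a higher mean log2 level in MC4R-/- libraries, with and without WT replicate 2. Among them, Itgam alone reached an unadjusted p under 0.05. The grouping is loose, since Itgam and Lyz2 are not confined to recruited cells. Itgam encodes the alpha M integrin chain CD11b, an adhesion and complement receptor of monocytes, macrophages, neutrophils and NK cells, and lies on chromosome 7 from 128062640 to 128118491 (GRCm38). It had 69.5, 75.4, 77.5, 81.4, 82.0 and 76.8 normalized counts in MC4R-/- replicates 1 to 6, against 43.3, 63.2, 45.7 and 65.2 in WT replicates 1 to 4. All 6 MC4R-/- libraries lay above all 4 WT libraries, as in 1.34% of all tested genes, and Itgam was the only member with groups that did not overlap. The means were 77.1 ± 4.56 (SD, n = 6) in MC4R-/- libraries and 54.3 ± 11.4 (SD, n = 4) in WT libraries, a log2 fold change of 0.52 ± 0.14 (SE; 95% interval 0.22 to 0.81; limma, adjusted p = 0.126). Without WT replicate 2 the log2 fold change was 0.60 and the adjusted p 0.0556, and among the fits run it passed the threshold only when WT replicate 4 was left out as well (log2 fold change 0.78, limma, adjusted p = 0.0290).

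The other genes grouped as recruited overlapped between genotypes. Ccr2, the receptor that draws monocytes towards CCL2 and CCL7, had 21.8 to 41.7 normalized counts with a median of 27.7 in MC4R-/- libraries, against 22.1, 23.5, 22.1 and 29.9 in WT replicates 1 to 4. Cd14, a co-receptor for bacterial lipopolysaccharide, averaged 38.4 ± 10.2 normalized counts (SD, n = 6) in MC4R-/- libraries and 33.3 ± 12.6 (SD, n = 4) in WT libraries. Lyz2, the lysozyme of myeloid cells, was the most abundant member per length at 680 normalized counts per kb. It averaged 927 ± 103 normalized counts (SD, n = 6) in MC4R-/- libraries and 848 ± 111 (SD, n = 4) in WT libraries (log2 fold change 0.13 ± 0.09, limma, adjusted p = 0.692). WT replicate 2, at 716 normalized counts, was the lowest library for Lyz2, and without it the log2 fold change was 0.05. Its reads are uncertain, because Lyz1 is a near-identical copy.

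The balance between the genes grouped as recruited and those grouped as resident overlapped between genotypes, and it does not measure the share of recruited cells. The mean log2 level of the 4 recruited genes minus that of the 6 resident genes was -0.49 to -0.30 with a median of -0.36 in MC4R-/- libraries, against -0.40, -0.33, -0.63 and -0.32 in WT replicates 1 to 4. WT replicate 3 was the lowest of all libraries, and the other WT libraries lay inside the MC4R-/- range. Markers of other cells that carry Itgam or Ccr2 also overlapped. The 6 neutrophil markers summed to 21.7 to 78.8 normalized counts in MC4R-/- libraries and 27.1 to 54.0 in WT libraries, and the 6 monocyte markers to 408 to 455.5 in MC4R-/- libraries and 325 to 501 in WT libraries. Of the 5 NK cell markers, Ncr1 was at 0 reads in all 10 libraries, and the sums were 0.871 to 6.85 in MC4R-/- libraries and 1.38 to 6.16 in WT libraries. Their part in the Itgam values was not tested.

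**Figure D3:**
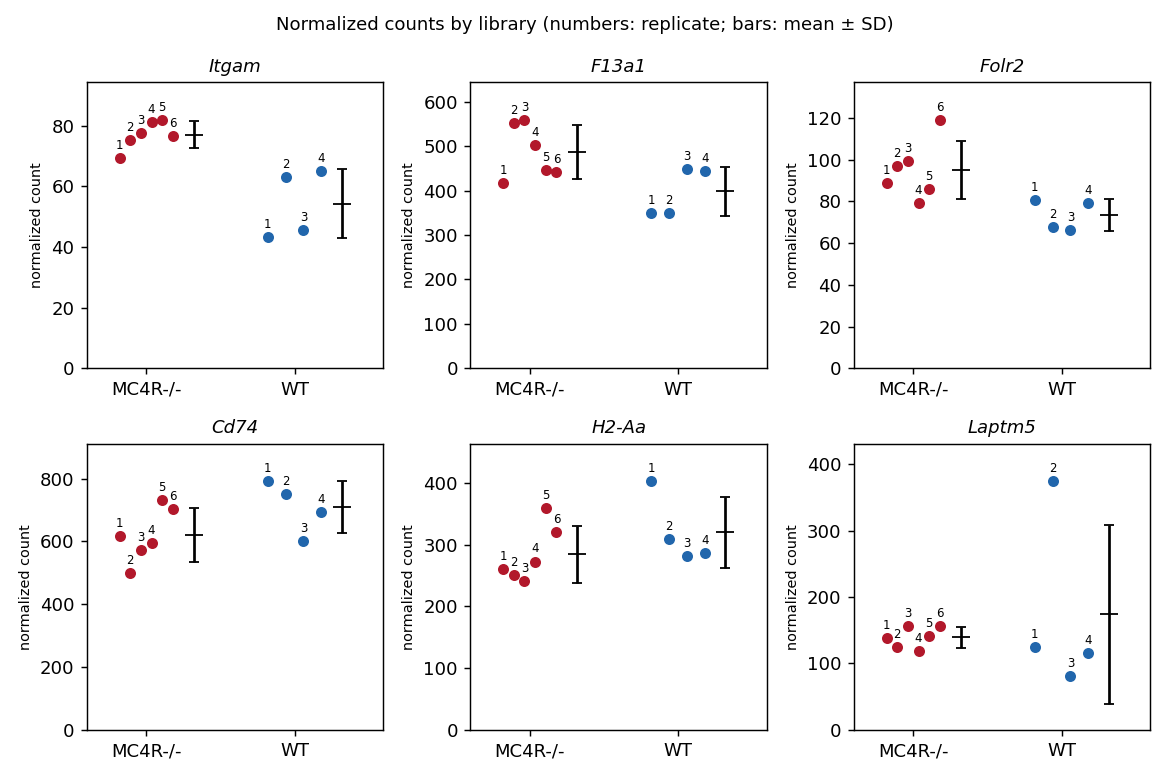
Normalized count of 6 members in every library (y axis from 0), MC4R-/- in red and WT in blue, with replicate numbers and the mean ± SD at the right of each group. Itgam is the only panel without overlap, at 69.5 to 82.0 in MC4R-/- and 43.3 to 65.2 in WT libraries; in the Laptm5 panel WT replicate 2, at 375, sets the WT mean and SD.

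Chemoattractant and complement receptors numbered 3, all with a higher mean log2 level in MC4R-/- libraries and 0 past the test. Cx3cr1, the fractalkine receptor of patrolling monocytes and many tissue macrophages, had 23.3 to 45.5 normalized counts with a median of 28.6 in MC4R-/- libraries, against 25.0, 17.1, 22.1 and 28.2 in WT replicates 1 to 4. MC4R-/- replicates 1 and 2, at 42.1 and 45.5, stood above the rest, and the log2 fold change was 0.46 ± 0.22 (SE; limma, adjusted p = 0.509). C5ar1 and C3ar1, the receptors of the complement fragments C5a and C3a, averaged 36.8 ± 7.86 and 60.8 ± 10.6 normalized counts (SD, n = 6) in MC4R-/- libraries, against 32.2 ± 4.95 and 55.9 ± 8.63 (SD, n = 4) in WT libraries. For both receptors the intervals of the log2 fold change held 0.

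Unlike most members, the 3 class II chain genes H2-Aa, H2-Ab1 and H2-Eb1 and the invariant chain gene Cd74 had a lower mean log2 level in MC4R-/- libraries in 4 of 4 cases, with a median log2 fold change of -0.17 with all libraries and -0.16 without WT replicate 2, and 0 passed the test. The chain genes sit side by side on chromosome 17 (GRCm38), H2-Ab1 from 34263227 to 34269418, H2-Aa from 34282744 to 34287823 and H2-Eb1 from 34305867 to 34316674, in the I-A and I-E regions of the mouse major histocompatibility complex. Cd74 had 617, 499.9, 572, 595, 733 and 705 normalized counts in MC4R-/- replicates 1 to 6, against 793, 753, 602 and 694 in WT replicates 1 to 4. MC4R-/- replicates 2, 3 and 4 lay below every WT library, while replicates 1, 5 and 6 lay inside the WT range. The log2 fold change was -0.20 ± 0.10 (SE; 95% interval -0.40 to 0.00; limma, adjusted p = 0.526). The row of Cd74 also holds the microRNA gene Mir5107.

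H2-Aa, the alpha chain of I-A, had 241 to 359.6 normalized counts with a median of 266 in MC4R-/- libraries, against 403, 309, 281 and 286 in WT replicates 1 to 4. MC4R-/- replicates 1 to 4 lay below every WT library, and replicates 5 and 6 lay within the WT range (log2 fold change -0.17 ± 0.12, limma, adjusted p = 0.701). H2-Ab1, the beta chain that pairs with it, had 142 to 237 normalized counts with a median of 194 in MC4R-/- libraries, against 261, 232, 206 and 166 in WT libraries. H2-Eb1 encodes the beta chain of I-E, whose alpha chain is not made in C57BL/6 mice. It had 184 to 284 normalized counts with a median of 239 in MC4R-/- libraries, against 289, 265, 197 and 233 in WT libraries, and its log2 fold change of -0.08 had an interval from -0.32 to 0.16 and was -0.04 without WT replicate 2. Cd86, the costimulatory ligand of CD28 on antigen-presenting cells, averaged 23.5 ± 5.28 normalized counts (SD, n = 6) in MC4R-/- libraries and 21.5 ± 4.93 (SD, n = 4) in WT libraries, and its log2 fold change was 0.12 with all libraries and -0.05 without WT replicate 2.

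The 4 class II genes shared their extreme libraries: WT replicate 1 was the highest of the 10 for each of them, and MC4R-/- replicate 2 was the lowest for H2-Ab1, H2-Eb1 and Cd74. Their summed level was 1346, 1076, 1176, 1292, 1584 and 1497 normalized counts in MC4R-/- replicates 1 to 6, against 1745, 1559, 1286 and 1380.0 in WT replicates 1 to 4. MC4R-/- replicates 2 and 3 lay below all WT libraries, and the other 4 MC4R-/- libraries lay inside the WT range. The mean log2 level of these 4 genes minus that of the 6 resident genes was 0.89 to 1.55 with a median of 1.28 in MC4R-/- libraries, against 2.15, 1.81, 1.39 and 1.23 in WT replicates 1 to 4. WT replicates 1 and 2 lay above all MC4R-/- libraries on this measure, and WT replicates 3 and 4 lay among them. Other cells that express class II were measured by their markers. The 8 B cell markers summed to 19.6 to 33.4 normalized counts in MC4R-/- libraries and 18 to 34.3 in WT libraries, with Pax5 at 0 in 7 of 10 libraries. Dendritic cell markers (8 genes) summed to 81.0 to 125 in MC4R-/- libraries and 82.1 to 111 in WT libraries, and the part of either cell type in the class II values was not tested.

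The further genes of the class II pathway showed no common direction. Of 15 listed genes for peptide loading and for the factors that bind class II promoters, 13 could be tested, 5 were higher and 8 lower in MC4R-/- libraries, and 0 passed the test. Ciita, the class II coactivator, had 7.12 to 13.9 normalized counts in MC4R-/- libraries and 6.16 to 11.5 in WT libraries. Rfxap and Nfyb, subunits of the X box and Y box factors, had log2 fold changes of -0.25 ± 0.15 and 0.21 ± 0.12 (SE; limma, adjusted p = 0.641 and 0.632). Ctss, the cathepsin S of the lysosomal group, which trims CD74, had 107 to 165 normalized counts with a median of 146 in MC4R-/- libraries, against 132, 126, 126 and 122 in WT replicates 1 to 4. Its MC4R-/- libraries spread to both sides of the WT libraries (log2 fold change 0.14 ± 0.12, limma, adjusted p = 0.768).

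Class I presentation served as a comparison, since every nucleated cell uses it. All 15 listed class I genes had a lower mean log2 level in MC4R-/- libraries when all libraries were used, with a median log2 fold change of -0.12 and 0 past the test, but without WT replicate 2 the split was 7 higher and 8 lower with a median of -0.09. Psmb8, a subunit of the immunoproteasome, had 45.8 to 76.3 normalized counts in MC4R-/- libraries, against 69.3, 158, 83.1 and 79.2 in WT replicates 1 to 4. Nlrc5, the class I transactivator, had 28.3 to 51.4 normalized counts in MC4R-/- libraries, against 56.8, 96.6, 30.5 and 39.6 in WT libraries. WT replicate 2 was the highest library for both genes. Without it, 8 of 15 class I genes were lower in MC4R-/- libraries, and all 4 of the class II chains and Cd74 were, though neither list had a member past the test.

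The 6 Fc receptors and adaptors all had a mean log2 level at or above WT, by 0.00 to 0.42, and 4 of 6 without WT replicate 2. Fcer1g, the common gamma chain through which activating Fc receptors signal, had 39.1 to 59.6 normalized counts with a median of 53.8 in MC4R-/- libraries, against 41.4, 34.3, 44.3 and 30.8 in WT replicates 1 to 4. Of the MC4R-/- libraries 4 of 6 lay above every WT library, and the log2 fold change was 0.42 ± 0.17 (SE; limma, adjusted p = 0.384). Tyrobp, the related adaptor DAP12, averaged 64.0 ± 6.71 normalized counts (SD, n = 6) in MC4R-/- libraries and 54.7 ± 11.5 (SD, n = 4) in WT libraries. WT replicate 2 was the lowest library for Tyrobp at 38.8, and the log2 fold change was 0.24 with it and 0.09 without it.

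The receptors themselves differed by less than the spread between libraries. Fcgr3, an activating receptor for IgG, averaged 106 ± 19.3 normalized counts (SD, n = 6) in MC4R-/- libraries and 99.3 ± 11.9 (SD, n = 4) in WT libraries, and the inhibitory receptor Fcgr2b averaged 73.8 ± 11.9 (SD, n = 6) in MC4R-/- libraries and 73.3 ± 9.73 (SD, n = 4) in WT libraries. The extracellular parts of these neighbouring genes are alike, so reads may have been split between them. Fcgr1, the high-affinity IgG receptor, and Trem2, a lipid-sensing receptor that signals through DAP12, were among the lowest members, at 15.8 ± 2.43 and 10.1 ± 2.94 normalized counts (SD, n = 6) in MC4R-/- libraries, against 13 ± 6.30 and 10.6 ± 6.08 (SD, n = 4) in WT libraries. For Trem2 the interval of the log2 fold change ran from -0.66 to 0.76, so a change inside it was not detectable at this depth.

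The remaining lysosomal and effector genes had overlapping groups. Lgmn, the asparaginyl endopeptidase legumain, averaged 564 ± 31.7 normalized counts (SD, n = 6) in MC4R-/- libraries and 523 ± 21.9 (SD, n = 4) in WT libraries. MC4R-/- replicate 1, at 505, was the only library of its group inside the WT range of 504 to 554, and the log2 fold change was 0.11 ± 0.07 (SE; limma, adjusted p = 0.677). Cd68, a lysosomal sialomucin and a common histological marker of macrophages, averaged 51.2 ± 6.79 normalized counts (SD, n = 6) in MC4R-/- libraries and 46.3 ± 4.96 (SD, n = 4) in WT libraries, with an interval of the log2 fold change from -0.18 to 0.46. Mpeg1, the pore-forming perforin-2 of phagocytes, averaged 122 ± 12.1 (SD, n = 6) in MC4R-/- libraries and 109 ± 14.8 (SD, n = 4) in WT libraries.

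The leukocyte membrane genes depended on WT replicate 2. Ptprc, the phosphatase CD45 of all white blood cells, had 48.6 to 84.7 normalized counts with a median of 63.6 in MC4R-/- libraries, against 60.6, 562, 51.2 and 70.4 in WT replicates 1 to 4. Its log2 fold change was -0.69 with all libraries and 0.11 without WT replicate 2. Cd53, a tetraspanin of leukocytes, had 27.9 to 50.6 normalized counts with a median of 35.4 in MC4R-/- libraries, against 31.8, 195, 19.4 and 25.5 in WT libraries. Laptm5, a lysosomal membrane protein of blood cells, had 118 to 157 normalized counts with a median of 139.9 in MC4R-/- libraries, against 125, 375, 80.3 and 115 in WT libraries. Without WT replicate 2 the log2 fold change was 0.56 ± 0.22 for Cd53 and 0.39 ± 0.13 for Laptm5 (SE; limma, adjusted p = 0.342 and 0.218), against -0.16 and -0.06 with it. WT replicate 2 was not high in the genes of macrophages proper: its resident genes summed to 957 normalized counts, within the 933 to 1174 of the other WT libraries, and its Csf1r count of 332 was near theirs. Cd4, the T cell co-receptor for class II, had 3.03 to 15.2 normalized counts in MC4R-/- libraries, 253 in WT replicate 2 and 11.1 to 15.4 in the other WT libraries, and the part of T cells in the values of Ptprc, Cd53 and Laptm5 was not tested.

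**Figure D4:**
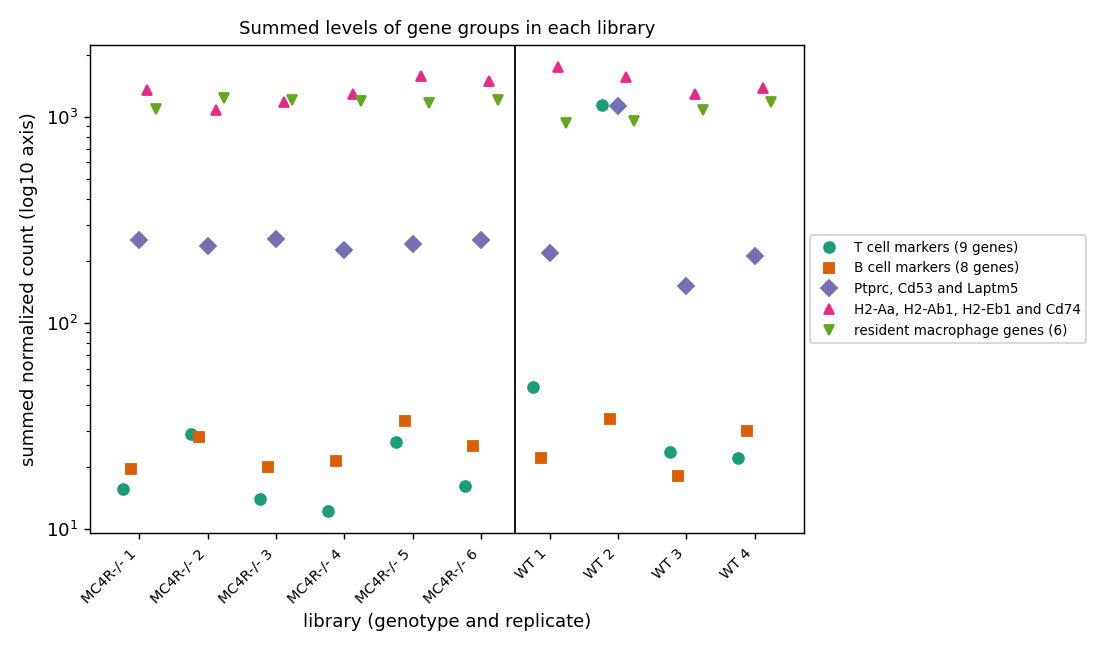
Summed normalized counts of 5 gene groups in each library on a log10 axis, MC4R-/- libraries left and WT libraries right of the line; groups hold different genes, so heights are compared between libraries and not between groups. T cell markers and the sum of Ptprc, Cd53 and Laptm5 reach 1135 and 1131 in WT replicate 2, while B cell, class II and resident macrophage sums of that library lie near those of the others.

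Per kb of transcript, the levels of the members spanned from 680 normalized counts for Lyz2 to 5.67 for Fcgr1. Cd74 followed Lyz2 at 466, then Lgmn at 275, H2-Aa at 265, H2-Ab1 at 166, H2-Eb1 at 143 and F13a1 at 114 normalized counts per kb. The class II chains thus all ranked among the 6 most abundant members, while Cx3cr1, at 7.67, and Timd4, at 5.97, ranked 34 and 35 of 36. These are means over all 10 libraries divided by the longest annotated transcript, so neighbours in this order, such as Lgmn and H2-Aa, are not separated.

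Other macrophage genes numbered 26 beyond the members, and 20 of 26 (76.9%) had a higher mean log2 level in MC4R-/- libraries, with a median log2 fold change of 0.17, and 0 passed the test with all libraries. Without WT replicate 2, C1qa and C1qb, chains of complement C1q that tissue macrophages make, passed it and rose, and 0.472% of all tested genes did so. With all libraries, both passed the threshold by DESeq2 (adjusted p = 0.04536 for C1qa and 0.04515 for C1qb). Neither did by edgeR (adjusted p = 0.1229 for each). C1qc, the remaining C1q chain, passed in none of these fits. By limma its log2 fold change was 0.33 with all libraries (adjusted p = 0.198) and 0.32 without WT replicate 2 (adjusted p = 0.218). With all libraries its adjusted p was 0.207 by edgeR and 0.176 by DESeq2.

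C1qb had 288 to 381 normalized counts with a median of 314 in MC4R-/- libraries, against 216, 282, 179 and 284 in WT replicates 1 to 4. All 6 MC4R-/- libraries lay above all WT libraries, by a small margin over WT replicates 2 and 4. Its log2 fold change was 0.56 ± 0.12 without WT replicate 2 (limma, adjusted p = 0.0210) and 0.47 ± 0.12 with it (adjusted p = 0.105). C1qa had log2 fold changes of 0.47 ± 0.11 without that library (limma, adjusted p = 0.0453) and 0.42 ± 0.11 with it (adjusted p = 0.0951). Lyve1, a hyaluronan receptor of resident macrophages and lymphatic vessels, had 187 to 293 normalized counts in MC4R-/- libraries, against 115, 191, 172 and 190.2 in WT libraries, and did not pass with it (log2 fold change 0.47, limma, adjusted p = 0.172) or without it (0.55, adjusted p = 0.0748).

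The ligands of these receptors, 14 listed and 10 tested, gave 8 higher and 2 lower means with all libraries and 5 of each without WT replicate 2, and 0 passed the test. Ccl7, a ligand of CCR2, had 7.07 to 26.4 normalized counts in MC4R-/- libraries, against 3.85, 8.12, 4.15 and 12.3 in WT libraries, with a log2 fold change of 0.89 ± 0.35 (SE; limma, adjusted p = 0.372). Il34, a ligand of CSF1R, averaged 37.8 ± 5.74 normalized counts (SD, n = 6) in MC4R-/- libraries and 29.8 ± 8.84 (SD, n = 4) in WT libraries. Fibroblast markers moved in the same direction as most macrophage genes: 6 of 6 had a higher mean in MC4R-/- libraries, Lum passed the test, and their sums were 5426 to 6165 in MC4R-/- libraries and 4669 to 5574 in WT libraries. Endothelial markers (6 genes) summed to 6049 to 7419 in MC4R-/- libraries and 6190.0 to 6984 in WT libraries. The part of the mixture of other cells in the macrophage values was not tested.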

How the data were processed

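RNA of 6 MC4R-/- and 4 WT ventricles was measured. Per the labels' protocols, each stranded KAPA poly(A) library was made from 200 ng of total RNA whose RIN was above 7. The build mm10 and the tools Cuffdiff 2.2.1.3, Cuffnorm 2.2.1.1, Cufflinks 2.2.1, Bowtie2, TopHat2 2.1.0 and bcl2fastq were used, per the submitters' processing notes. The role of each tool, the annotation and the strand setting are not given in the sources used here, so reads of overlapping and antisense genes cannot be told apart.

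The signal values deposited by the authors, in 1 table of 24160 rows and 10 columns, equal reads per gene over a size factor of the library, as the values themselves show: 99.986 to 100% of those in a library, divided by what 1 read was worth there, came out whole to within 0.1 (in MC4R-/- replicate 6 that worth was close to 1, which makes the check weak). Symbols came from a RefSeq table of GRCm38.p6, which gave a symbol for 23984 rows, of which 335 join several symbols. Per-kb levels use the longest GENCODE transcript.

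R 4.3.3 with limma 3.58.1 (lmFit, then eBayes with robust and trend options) compared the genotypes on log2(normalized count + 1) for the 14611 genes with a mean of at least 1. The test is two-sided with Benjamini-Hochberg adjustment and a threshold of 0.05, and the pseudocount understates changes of low genes. Intervals are 95%. Alternatives included, on the recovered reads, DESeq2 1.42.0 and the quasi-likelihood test of edgeR 4.0.16, and also other pseudocounts, filters and scalings, a replicate block and leaving out each library. The fit was tested on simulated data.

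Members and lists were chosen with earlier results of these data known. All 36 members are named. Of each further list, every gene past the threshold and otherwise up to 4 genes with the smallest unadjusted p could be named; 1 gene that this rule takes is not reported here, and Ciita and Cd4 were picked for their role after their values were seen.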

Additional observations from a re-analysis of the deposited data

Results flagged for a closer look

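The spread test for a single distant library was applied to 72 groups (36 genes in 2 genotypes), and 5 groups met it, where chance alone gives about 1 in 20. WT replicate 2 was far above the other WT libraries in Ptprc, at 561.5 normalized counts with the nearest at 70.4, in Cd53, at 195 with the nearest at 31.8, and in Laptm5, at 374.6 with the nearest at 125.1. Fcgr3 was high in MC4R-/- replicate 6, at 142.4 normalized counts with the nearest library at 107.4. Lgmn was low in MC4R-/- replicate 1, at 504.9 normalized counts with the nearest library at 563.4.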

How the results depend on the processing

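With all libraries, 0 members passed the threshold in any of the 21 settings, 22 were higher and 4 lower in every setting, and 0 turned direction under another scaling. Over all genes, 67 passed, against 0 without the robust and trend options (1290 genes at an unadjusted p under 0.05), 50 by edgeR, 122 by DESeq2 and 26 to 118 when each library was left out. Without WT replicate 2, 118 genes passed, against 72 with no filter on low values, 1 without the trend and robust steps and 43 to 167 when a further library was left out, and members past the threshold ran from 0 to 1 (Itgam, without WT replicate 4). The members with groups that did not overlap numbered 1 to 3 of 36 when each library was left out, where 2.92 to 4.79% of all genes did not overlap, in either direction.

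Same-numbered libraries did not deviate together (correlations -0.0601 to -0.00349), so the replicate number does not pair them. With the replicate block 52 genes passed with all libraries and 76 without WT replicate 2, with 0 members in both. MC4R-/- replicates 5 and 6 have no WT library of the same number, so under the block they add nothing to the genotype difference. Without WT replicate 2 the same holds for MC4R-/- replicate 2. Under the block the log2 fold change changed sign for Adgre1 (0.049), Cd163 (-0.068), Cd86 (-0.0535), Fcgr2b (-0.063) and Fcgr3 (-0.040). By edgeR and DESeq2 that of Cd163 was -0.00443 and -0.00471 and that of Trem2 -0.11 and -0.11. When each library was left out, the range held 0 for Adgre1 (-0.099 to 0.019), Cd163 (-0.072 to 0.079), Fcgr2b (-0.058 to 0.087), Fcgr3 (-0.0086 to 0.16), H2-Eb1 (-0.18 to 0.0025), Cd86 (-0.047 to 0.21), Trem2 (-0.29 to 0.35), Ptprc (-1.03 to 0.11), Cd53 (-0.53 to 0.56) and Laptm5 (-0.34 to 0.39). The cause was not tested. The lowest members had means near 10.3 normalized counts, and depth limits what can be seen there.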
